A study of Mus musculus with 6 samples.

Results

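Day 3 of differentiation was examined in a MyoD-silenced clone of the mouse muscle line C2C12, set against control C2C12 cells. The comparison rested on the 2 arrays whose titles name this day, out of 6 in the series, which also covered days 1 and 6. On each array, RNA of the clone was hybridised together with RNA of the control. The labelling was exchanged between the arrays, so that the clone carried Cy5 on replicate A and Cy3 on replicate B. Both are a dye swap of the same comparison and were counted as 1 replicate, so day 3 on its own has no test.

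C2C12 is a myoblast line from muscle of C3H mice. The clone, MyoD(-)cl.A8, was the only clone used. It had been transfected with a pcDNA 3.0 construct that carries the mouse MyoD transcript in antisense, and had been selected with G-418. The control group is called C2C12 control cells, and the labels do not say whether it carried an empty vector or went through the same selection. Both groups were differentiated in medium with horse serum in place of the fetal bovine serum used for growth. The array was a muscle array built for human genes, so the gene names below are those of human probes, and which mouse transcript each probe bound was not tested.

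MyoD is a basic helix-loop-helix transcription factor of the myogenic family that sets cells on the muscle path. It binds short DNA elements called E-boxes together with a ubiquitous E protein partner, and acts with myogenin and MEF2 factors to switch on the genes of the contractile apparatus. When serum is lowered, C2C12 myoblasts leave the cell cycle, align, fuse and build sarcomeres, in which thick filaments of myosin slide along thin filaments of actin anchored at Z discs.

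The deposited values were scores, with scale, centring and direction unstated. On the 6 arrays the spots had SDs of 1.41 to 1.62, and values reached 21.6, beyond what a log2 ratio from a 16-bit scanner can be, so no fold changes are given. A positive score was taken as higher in the clone. This direction is likely, because the labels name the clone as test and the control as reference. Each array held 2466 features after averaging of spots and probes, namely 1521 named genes and 945 unnamed probes. Spot brightness was not used here, and precision is limited by how few arrays there are. Duplicate spots on the same array also differed. They correlated at 0.428 on day 3 replicate A and 0.477 on replicate B, and at 0.249 to 0.602 over the 6 arrays. The replicates of day 3 correlated at 0.164 across features, which are not independent replicates. The figure was 0.206 on day 1 and 0.206 on day 6, and -0.078 to 0.122 between arrays of different days.

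Large values agreed in sign between the arrays more often than the bulk of the genes. Among all 1521 genes the sign was the same on both arrays for 53.8%, and among all features for 53.5%. Of the 134 genes at least 2 units from 0 on replicate A, 64.9% had the same sign on replicate B, and of the 33 genes at least 3 units from 0 there, 75.8% did. Starting from replicate B, the shares were 69.8% of 139 genes and 81.8% of 33 genes. Over all features, unnamed probes included, the shares on replicate A were 63.9% at 2 units and 63.9% at 3 units, so the increase between these sizes was not seen there, and on replicate B they were 68.7% and 79.2%. Even so, 24 genes reached 2 units in the same direction on both arrays, which is 17.9% of those that reached it on replicate A. The opposite pattern, 2 units on both arrays with opposite signs, was found for 2 genes. These were LPIN1 at -3.37 and 2.07 and PUDP at -2.46 and 2.12. Over all features, unnamed probes included, the opposite pattern was found for 6, against 31 that reached 2 units in the same direction.

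The 24 genes made up 1.58% of the 1521 genes measured. Of these, 10 genes (0.657%) were higher in the clone and 14 (0.920%) were lower. With the unnamed probes, 31 of 2466 features (1.26%) reached 2 units on both arrays, 11 higher (0.446%) and 20 lower (0.811%). A limma fit of all 6 arrays set each day 3 mean against the spread between dye-swapped arrays. That spread is technical and says nothing about another culture or clone. In it 8 features (0.324%) passed at a Benjamini-Hochberg adjusted p under 0.05, 2 higher (0.0811%) and 6 lower (0.243%), and 236 (9.57%) had an unadjusted p under 0.05. All 8 were also among the 31. S100A6, PALM, MIF, MYH7, S100A11 and an unnamed probe fell, and PPP1R14B and TRIM54 rose. With a term for the dye added to the fit, S100A6, PALM, MIF and PPP1R14B passed, and MYH7 (limma's adjusted p = 0.0682), TRIM54 (0.0911), S100A11 (0.137) and the unnamed probe (0.0682) did not. The words "rose" and "fell" are kept for the 8 features of the fit without that term.

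**Figure D1:**
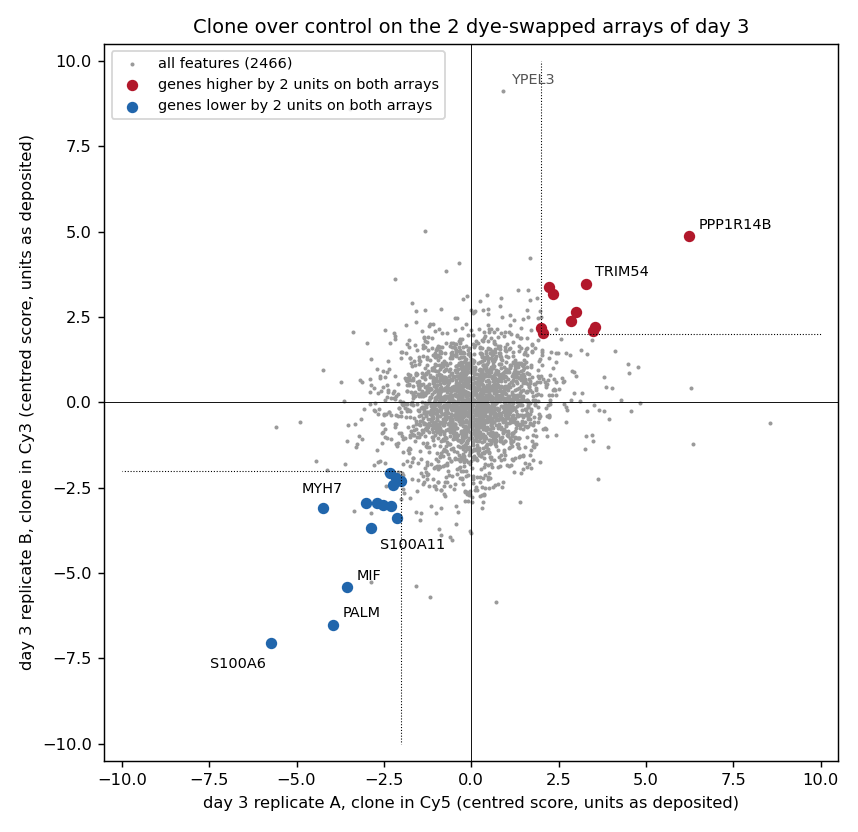
Centred score (clone over control, units as deposited) of each of the 2466 features on day 3 replicate A (horizontal axis) and replicate B (vertical axis), with dotted lines at 2 units. The 10 genes higher and 14 genes lower by at least 2 units on both arrays are coloured, and PPP1R14B at 6.24 and 4.87 and S100A6 at -5.72 and -7.04 lie furthest out along the diagonal, while YPEL3 at 0.90 and 9.11 is high on 1 array.

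The gene that was silenced and those named in the series title come first. MYOD1 (Entrez Gene 4654) stood at 1.11 on replicate A and -1.03 on replicate B, a mean of 0.04 (limma's adjusted p = 0.993). The labels do not say which strand this probe binds, and the antisense construct is itself made from MyoD, so the score is no check of the silencing. CDKN1C (Entrez Gene 1028) encodes p57, which blocks cyclin-dependent kinases. It read 1.80 and -0.58, a mean of 0.61 (limma's adjusted p = 0.899). ANKRD2 (Entrez Gene 26287), a stretch-responsive sarcomere protein with ankyrin repeats, read -0.16 and 0.18 (limma's adjusted p = 0.997). All 3 had opposite signs on the arrays and lay within the bulk of the features. The title gene S100A6 is described next; since the study named these genes itself, they are not independent evidence.

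S100 proteins are small calcium sensors with a pair of EF-hand motifs, which dimerise and bind targets such as annexins when calcium rises. S100A6 (Entrez Gene 6277), known as calcyclin, had the lowest score of the 1521 genes. It read -5.72 on replicate A and -7.04 on replicate B, a mean of -6.38 ± 0.80 (SE of the limma fit, adjusted p = 0.00223). Its 4 spot values, 2 on each array, lay close together at -5.74, -5.70, -7.28 and -6.72. S100A11 (Entrez Gene 6282), or calgizzarin, read -2.86 and -3.67, a mean of -3.27 ± 0.64 (SE; limma's adjusted p = 0.0430, and 0.137 with the dye term). No other member of the family reached 2 units on both arrays. Of the 8 family members measured, 3 were below 0 on both arrays and 0 above 0 on both, against 26.0% and 27.7% of all genes, and the median was -0.62, or -1.05 on replicate B alone. The third was S100A10, the annexin A2 partner, at -0.65 and -1.63. The highest, S100A1, an S100 protein of striated muscle, stood at -0.21 and 0.83. Their partners ANXA2 (-0.17 and -1.01) and ANXA5 (-1.28 and -0.12) were below 0 on both arrays, and the large scaffold AHNAK, at 0.48 and 0.94, was above.

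Thick filament genes lay below 0 on both arrays more often than above, and the other parts of the contractile machinery were mixed. MYH7 (Entrez Gene 4625), the slow and cardiac beta myosin heavy chain, read -4.24 and -3.08, a mean of -3.66 ± 0.63 (SE; limma's adjusted p = 0.0145, and 0.0682 with the dye term). It was measured by 5 probes, with day 3 means of -5.90, -4.02, -2.33, -3.03 and -2.94, and 19 of its 20 spot values lay below 0. In the same order, the probes read -5.02, -3.53, -2.63, -4.74 and -5.28 on replicate A. On replicate B they were more uneven, at -6.78, -4.52, -2.03, -1.31 and -0.60. With the median of the probes in place of their mean, its adjusted p in limma was 0.0636. Next lowest of the 13 thick filament genes were MYH1, a fast myosin heavy chain, at -3.61 and -1.80, and MYBPC1, slow myosin-binding protein C, at -2.79 and -1.83. Of the 13, 6 were below 0 on both arrays and 1 was above, with a median of -0.64, against a median of 0.01 for all genes. The thick filament median was -1.19 on replicate B alone and -0.42 with neighbouring probes subtracted. The 1 above was MYL11, the fast regulatory light chain, at 0.79 and 1.12. Myosin heavy chain genes are near-identical over long stretches, so which of them the MYH7 and MYH1 probes bound is uncertain.

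The 14 thin filament genes, which encode actins, tropomyosins, troponins, nebulin and tropomodulins, had a median of -0.01 (-0.22 on replicate A and 0.15 on replicate B), with 3 above and 2 below 0 on both arrays. The highest were TNNC1, the slow and cardiac troponin C, at 1.56 and 0.56, TPM1 at 1.09 and 0.53, and ACTC1, cardiac actin, at 1.70 and -0.26. The lowest was TMOD1, which caps the pointed end of thin filaments, at -0.98 and -1.50.

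TRIM54 (Entrez Gene 57159), or MURF3, a ubiquitin ligase that binds microtubules and the Z disc, read 3.28 and 3.48. Its mean of 3.38 ± 0.63 (SE) passed in limma with an adjusted p of 0.0266, which was 0.0911 with the dye term. Among the 20 genes of the Z disc and titin-associated group it stood alone in reaching 2 units on both arrays. The group was split, with 8 genes above and 5 below 0 on both arrays, and its median was 0.22, or -0.05 on replicate B alone. CRYAB, the small heat shock protein that protects desmin and titin, stood at 3.85 and 0.45, and CSRP3, or muscle LIM protein, at 0.74 and 2.14. At the other end were LDB3, or ZASP, at -3.56 and -1.12, ACTN2, the alpha-actinin that crosslinks actin at the Z disc, at -3.13 and -1.06, and PDLIM5 at -1.96 and -2.12. SGCA, alpha-sarcoglycan of the dystrophin complex, read 2.06 and 2.02. The 13 genes of excitation and calcium handling were 3 above and 3 below 0 on both arrays, and 7 had opposite signs. The arrays disagreed on the group, with a median of 0.96 on replicate A and -0.84 on replicate B. At the upper end were CHRNA1, the muscle acetylcholine receptor alpha subunit, at 1.55 and 0.68 and ATP2A2, the slow-muscle and cardiac calcium pump, at 1.89 and 0.59. The lowest was TRDN, or triadin, at 0.34 and -2.22.

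**Figure D2:**
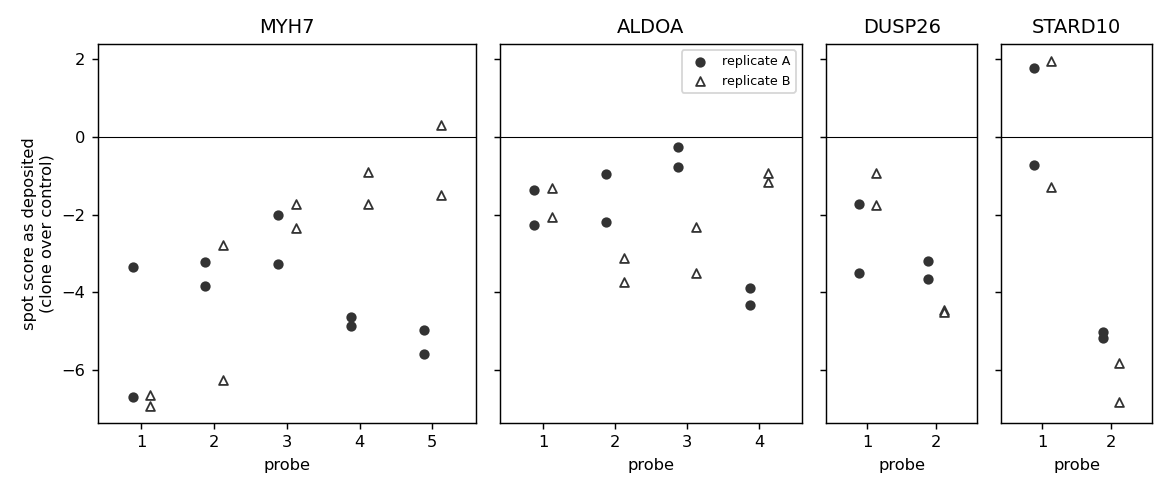
Day 3 scores as deposited (clone over control) of every spot of the 4 counted genes that have several probes, with the probes side by side, filled points for replicate A and open triangles for replicate B. All 5 probes of MYH7 and all 4 of ALDOA have means below 0, while the probes of STARD10 have means of 0.42 and -5.71.

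PPP1R14B (Entrez Gene 26472) encodes an inhibitor of protein phosphatase 1, the enzyme that among other substrates removes phosphate from myosin light chains. It rose most of all named genes, reading 6.24 on replicate A and 4.87 on replicate B, a mean of 5.56 ± 0.81 (SE; limma's adjusted p = 0.00365). Its 4 spot values ran from 3.58 to 6.49. The 6 genes of protein phosphatase 1 and its regulators, PPP1R14B included, had a median of 0.37, or 0.71 on replicate B alone. Of these, 2 were above and 1 below 0 on both arrays. DUSP26, a dual-specificity phosphatase, read -3.02 and -2.95 and did not pass (limma's adjusted p = 0.0733), with 8 of 8 spot values from its 2 probes below 0.

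PALM (Entrez Gene 5064), or paralemmin, is a lipid-anchored protein that links the plasma membrane to the cytoskeleton. It fell, reading -3.94 and -6.51, a mean of -5.23 ± 0.70 (SE; limma's adjusted p = 0.00253). In the group of 25 actin and tubulin cytoskeleton genes it belongs to, 12 (48.0%) were below 0 on both arrays and 5 (20.0%) above, with a median of -0.73. On single arrays the group's median was nearer 0, at -0.20 on replicate A and -0.33 on replicate B. The next lowest were ARPC3, a subunit of the Arp2/3 actin nucleator, at -1.58 and -3.23, and VIM, or vimentin, the intermediate filament of myoblasts, at -2.45 and -1.01. The highest was ACTR10, a dynactin subunit, at 1.09 and 2.06.

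MIF (Entrez Gene 4282), a secreted cytokine, fell, reading -3.55 and -5.42, a mean of -4.49 ± 0.66 (SE; limma's adjusted p = 0.00365). Among the 8 secreted growth factors and cytokines, MIF included, 5 were below 0 on both arrays and 1 was above. The shares of all genes were 26.0% and 27.7%, and the median of the 8 was -0.77. IGFBP6 and IGFBP7, which bind insulin-like growth factors, had means of -1.57 and -1.38. The 13 genes of the extracellular matrix and its modifiers had a median of 0.47, from CTSD, the lysosomal protease cathepsin D, at a mean of 1.68, down to SPARC, a matricellular collagen-binding protein, at -1.80.

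The promoters of the 2 genes that rose and the 2 with the lowest scores are shown because MyoD binds E-boxes, whose letters are CANNTG. Each line gives the 250 bases of the mouse gene upstream of its start, as in RefSeq for GRCm38.p6, written 5′ to 3′ along the gene's strand, with every CANNTG in capitals. The motif reads as CANNTG on both strands, so 1 search covers both, and the motif CAGCTG, searched second, is a case of it.
S100a6, chr3:90612644-90612893, plus strand: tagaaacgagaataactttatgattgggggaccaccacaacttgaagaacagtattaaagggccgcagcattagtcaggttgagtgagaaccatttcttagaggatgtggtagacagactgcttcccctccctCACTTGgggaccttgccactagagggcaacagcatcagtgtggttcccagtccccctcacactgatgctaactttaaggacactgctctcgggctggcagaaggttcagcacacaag
Palm, chr10:79793322-79793571, plus strand: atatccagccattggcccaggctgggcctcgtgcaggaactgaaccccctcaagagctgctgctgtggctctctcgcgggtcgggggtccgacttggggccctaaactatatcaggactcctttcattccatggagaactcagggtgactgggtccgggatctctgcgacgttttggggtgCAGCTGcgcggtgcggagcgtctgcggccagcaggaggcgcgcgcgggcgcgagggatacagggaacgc
Ppp1r14b, chr19:6974798-6975047, plus strand: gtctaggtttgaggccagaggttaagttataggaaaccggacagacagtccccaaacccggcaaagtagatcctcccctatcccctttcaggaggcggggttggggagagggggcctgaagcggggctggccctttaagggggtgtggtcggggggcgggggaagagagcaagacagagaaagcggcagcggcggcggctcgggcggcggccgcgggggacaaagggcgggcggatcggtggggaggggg
Trim54, chr5:31116362-31116611, plus strand: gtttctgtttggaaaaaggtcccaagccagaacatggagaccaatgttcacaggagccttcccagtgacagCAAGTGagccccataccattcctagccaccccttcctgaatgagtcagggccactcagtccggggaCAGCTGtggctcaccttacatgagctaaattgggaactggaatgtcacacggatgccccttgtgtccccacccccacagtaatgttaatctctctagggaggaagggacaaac
The match in S100a6 begins 117 bases before the start, and that in Palm, a CAGCTG, begins 69 bases before it. Trim54 has matches 179 and 113 bases before the start, the nearer of them CAGCTG. The Ppp1r14b window does not contain these letters. By symbol, 18 of the 24 counted genes had an entry. CANNTG was present for 3 of 7 genes higher in the clone and 7 of 11 lower, against 69.3% of 27025 genes with an entry and 66.2% of all windows. CAGCTG was present for 1 of 7 and 1 of 11, against 14.7% of genes and 13.0% of windows. These shares do not set the counted genes apart, and a match in a window of this length is a description of its letters, not of binding.

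Among metabolic genes, 2 glycolytic enzymes reached 2 units on both arrays, both lower in the clone. PGK1, phosphoglycerate kinase, which makes ATP in glycolysis, read -2.25 and -2.41. ALDOA, the muscle aldolase, read -2.01 and -2.31, and all 16 spot values of its 4 probes lay below 0. ALDOA no longer reached 2 units on both arrays when these were scaled to equal spread, when its probes were kept apart or their median was taken, and when neighbouring probes were subtracted, and PGK1 did not in the last of these (mean -1.37). Neither passed in limma, where the 17 counted genes that were not called had adjusted p of 0.0733 to 0.287. Of the 12 genes of glycolysis and glycogen, 5 were below 0 on both arrays and 2 above. The group's median was -0.27, or 0.04 on replicate B alone, and its highest member, PGM1, phosphoglucomutase, had a mean of 1.32. CKMT2, the mitochondrial creatine kinase of muscle, read -1.76 and -2.80 and was the lowest of 5 creatine and adenylate kinase genes, while CKM, the cytosolic muscle form, was near 0 at -0.08 and -0.23. The 15 genes of the citrate cycle and fatty acid oxidation had 6 below and 4 above 0 on both arrays, with ETFB, which carries electrons from fatty acid oxidation, lowest at -3.29 and -1.32.

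Genes of the respiratory chain leaned the other way. Of the 61 genes of oxidative phosphorylation, 31 (50.8%) were above 0 on both arrays and 9 (14.8%) below, against 27.7% and 26.0% of all genes, and their median was 0.43. That median was 0.70 on replicate A alone, 0.21 on replicate B alone and 0.20 with neighbouring probes subtracted. It was 0.13 on day 1 and 0.46 on day 6, so the lean was not particular to day 3. For complex I, complexes II and III, complex IV and ATP synthase, the day 6 medians were 0.78, 1.30, 0.21 and 0.44. The day 3 medians were 0.45, 0.40, 0.33 and 0.42. In the same order, they were 0.40, 0.91, 0.47 and 1.22 on replicate A alone. On replicate B alone they were 0.07, -0.10, 0.39 and 0.33. Complex I had 16 of 28 genes above 0 on both arrays, complex IV 6 of 10, ATP synthase 6 of 14, and complexes II and III together 3 of 9. The highest were ATP5MK, a small subunit of ATP synthase, at 1.69 and 4.24, NDUFB7 of complex I at 1.90 and 3.06, ATP5MC3, which encodes the subunit of the proton-conducting ring, at 2.01 and 2.18, and ATP5F1B, the catalytic beta subunit, at 1.61 and 2.49. Most values were small, and ATP5MC3 was the 1 gene of the 61 to reach 2 units on both arrays, which it no longer did in scaled arrays or with neighbouring probes subtracted (mean 1.94). CHCHD2, a mitochondrial protein that also regulates transcription of respiratory genes, read 3.55 and 2.21.

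Genes of protein folding and of the ubiquitin system also lay above 0 on both arrays more often than below. Of 23 chaperone genes, 14 (60.9%) were above 0 on both arrays and 3 below, with a median of 0.93. The chaperone median was 0.29 on day 1 and 0.57 on day 6. HSPE1, the mitochondrial co-chaperonin HSP10, read 2.34 and 3.17, and SUGT1, a co-chaperone of HSP90 that also acts in ubiquitin ligase complexes, read 2.21 and 3.38. BAG1, which releases clients from HSP70, read 1.33 and 3.29. HSPB6, the muscle small heat shock protein HSP20, was the lowest at -1.92 and -2.67. In the ubiquitin system 17 of 35 genes (48.6%) were above 0 on both arrays and 4 below, with a median of 0.43. Its highest member was TRIM54, at a mean of 3.38, which was also listed in the Z disc group. USP24, a deubiquitinating enzyme, read 3.48 and 2.08, and NUB1, which downregulates the ubiquitin-like protein NEDD8, was the lowest at -1.96 and -2.53. The 9 proteasome genes, 3 above and 2 below 0 on both arrays, were near the shares of all genes.

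Cytosolic ribosomal proteins showed no common direction. Of 55, 17 were above and 14 below 0 on both arrays, and the median was 0.04, which changed sign when the arrays were scaled to equal spread, when probes were kept apart and when neighbouring probes were subtracted. RPL35, at 1.99 and 2.52, and RPS9, at -2.67 and -1.74, were the ends of the range. For the 28 translation factors the median was 0.28, or 0.49 on replicate A alone, with 10 above and 5 below 0 on both arrays, from EIF4A2, an RNA helicase of initiation, at 0.49 and 2.60 to EIF2B1, a subunit of the exchange factor for eIF2, at -0.39 and -3.21.

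**Figure D3:**
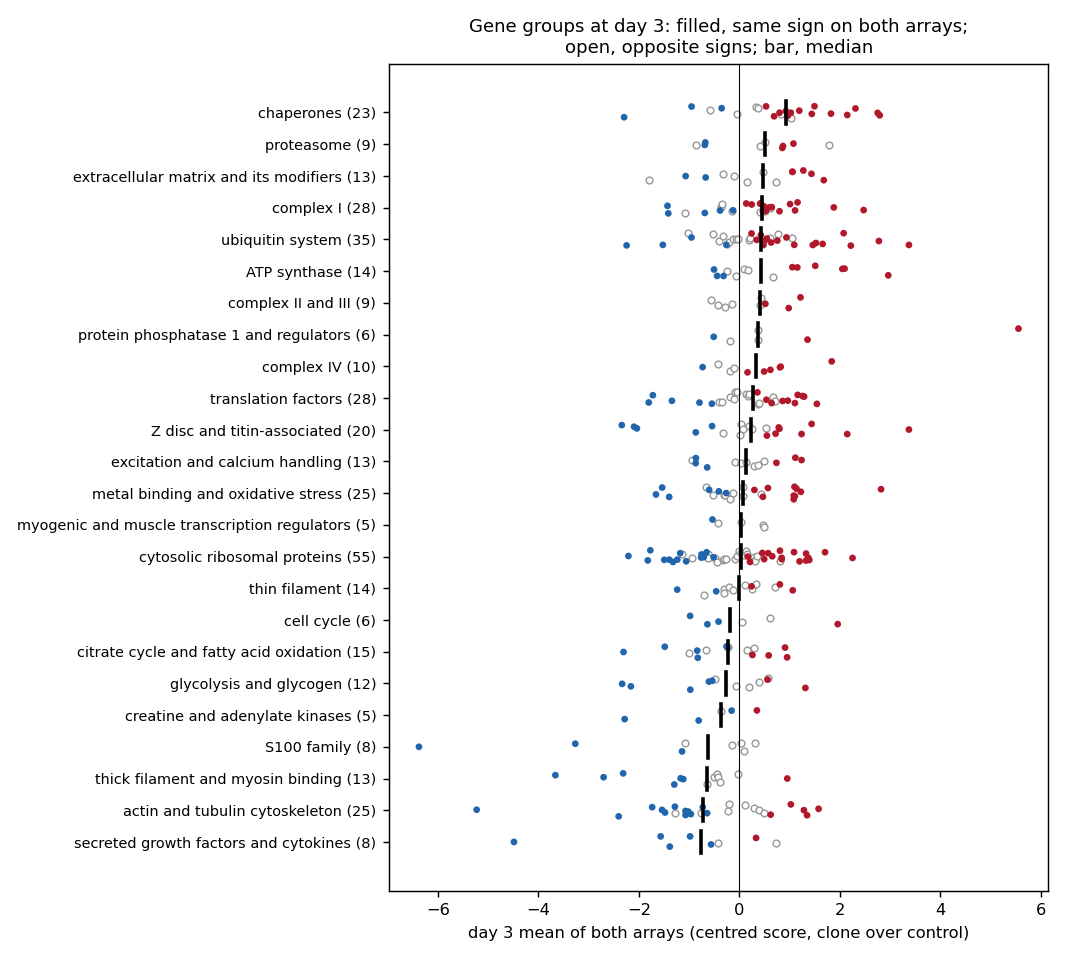
Day 3 mean scores (horizontal axis, units as deposited, clone over control) of the genes of each group, with 1 point per gene, filled where both arrays have the same sign (red above 0, blue below) and open where they differ, and a bar at the median. The medians run from -0.77 for secreted growth factors and cytokines to 0.93 for chaperones, and single members such as S100A6, PALM, MIF and PPP1R14B lie far outside their groups.

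The remaining counted genes had varied roles. MT2A, a metallothionein that binds zinc and copper, read 3.00 and 2.64. The human probes of the related MT1E and MT1X, named here only for their family, had means of 1.10 and -0.60. Which mouse transcript these 3 probes bound was not tested. CCDC124, a ribosome-associated coiled-coil protein, read 2.87 and 2.40. On the lower side stood IFITM1, an interferon-induced membrane protein, at -2.70 and -2.96, EFTUD2, a GTPase of the spliceosome, at -2.51 and -3.01, and ABTB2 at -2.11 and -3.38. The replicate A value of EFTUD2 averaged spots that disagreed, at -0.16 and -4.86. STARD10, a lipid transfer protein, read -2.29 and -3.04 as a mean of 2 probes that disagreed, at 0.42 and -5.71. TYROBP, a signalling adaptor of myeloid and natural killer cells, read -2.33 and -2.06, and HCFC1R1 read -2.14 and -2.20. With neighbouring probes subtracted, IFITM1, EFTUD2, ABTB2, TYROBP and HCFC1R1 no longer reached 2 units on both arrays, nor did SGCA.

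Regulators of the muscle programme mostly disagreed between the arrays, while 4 of 6 cell cycle genes had the same sign on both. The 5 muscle transcription regulators measured included MYF6, a relative of MyoD, at 1.32 and -0.38, TEAD4, a partner factor at muscle promoters, at 1.55 and -0.56, and MEF2D, at -1.07 and -0.02. Of the cell cycle genes, 1 was above and 3 below 0 on both arrays: TOB2, an antiproliferative protein, was highest at 1.48 and 2.44 and CCNI, or cyclin I, lowest at -1.25 and -0.71. Markers of the cells themselves and of other cell types were sparse on this array. DES, or desmin, read 0.48 and -0.42, and with VIM it was 1 of 2 identity markers measured out of 7 listed. Of 8 fibroblast markers 1 was measured, POSTN at 0.60 and 1.51. Of 5 smooth muscle markers 2 were, TAGLN at -1.17 and -0.29 and CNN1 at 0.56 and -0.33. Of 5 adipocyte markers 2 were, FABP4 at 0.26 and 0.28 and SCD at -1.75 and -1.36. Of 7 bone and cartilage markers 0 were. Fewer cells of a type in the culture and less RNA per cell cannot be told apart in such bulk RNA.

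Day 3 was then set beside days 1 and 6, each again 1 pair of dye-swapped arrays. PPP1R14B, at a mean of 5.56 on day 3, had means of -0.64 on day 1 and -1.82 on day 6. Its day 3 score was higher than that of day 1 by 6.19 (limma's adjusted p = 0.0441) and than that of day 6 by 7.38 (limma's adjusted p = 0.0269). PALM, at -5.23 on day 3, stood at 0.85 on day 1 and -0.32 on day 6. Its difference from day 1, -6.08, passed (limma's adjusted p = 0.0160), and that from day 6, -4.91, did not (limma's adjusted p = 0.115). CDKN1C read -6.97 and -8.53 on day 1 against a day 3 mean of 0.61, a difference of 8.36 (limma's adjusted p = 0.00375). In all, 4 features (0.162%) differed between days 3 and 1, with 188 (7.62%) at an unadjusted p under 0.05, and 1 (0.0406%) between days 3 and 6, with 216 (8.76%) at an unadjusted p under 0.05.

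With the dye term, PPP1R14B missed the threshold against day 1 (limma's adjusted p = 0.0727) and day 6 (0.0688), and PALM against day 1 (0.0693), while CDKN1C passed (0.0055). PPP1R14B against day 1 also missed it in scaled arrays (limma's adjusted p = 0.0505). Leaving out single arrays ended many of these calls. CDKN1C missed the threshold without either day 1 array (limma's adjusted p of 0.0888 and 0.328 without replicates A and B) and without day 3 replicate A (0.0945). PALM and PPP1R14B both missed it against day 1 without either day 1 array (limma's adjusted p of 0.0836 to 0.693) or without day 3 replicate B (0.214 for both). Without day 3 replicate A PALM passed (limma's adjusted p = 0.0341) and PPP1R14B did not (0.440). PPP1R14B missed it against day 6 without day 3 replicate A or B (limma's adjusted p of 0.283 and 0.0948). With 1 day 3 array left out, day 3 is a lone array in 1 dye orientation, assumed to vary like the arrays of days 1 and 6. For the day 3 means themselves, none of the 7 called genes passed without replicate B (limma's adjusted p of 0.117 to 0.332). Without replicate A, S100A6 (0.0342), PALM (0.0113) and MIF (0.0245) passed in limma and PPP1R14B, MYH7, TRIM54 and S100A11 did not (adjusted p of 0.283 to 0.347). Without either day 1 array, MYH7 (0.102), TRIM54 (0.108) and S100A11 (0.123) missed limma's threshold.

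No other counted gene passed between days. MYH7 averaged -0.19 on day 1 and 0.17 on day 6, and TRIM54 0.20 and 0.21, yet their differences from day 3 did not pass (limma's adjusted p of 0.448 and 0.132 for MYH7, 0.448 and 0.234 for TRIM54). S100A6 was low on all days, at -2.12 on day 1 and -5.59 on day 6, and MIF averaged -1.77 and -1.97. MT2A changed from 2.82 on day 3 to -1.64 on day 6, a difference of 4.46 that did not pass (limma's adjusted p = 0.132). ALDOA, at -2.16 on day 3, averaged 1.24 on day 6. HSPE1 was the 1 gene of the 10 higher that also reached 2 units on both arrays of day 1, and S100A6 the 1 gene of the 14 lower that did so on day 6. The median of the 10 higher genes was 2.79 on day 3, 0.48 on day 1 and 1.46 on day 6, and that of the 14 lower genes -2.79, -0.47 and -0.72. Since the genes were counted for their day 3 values, the larger day 3 medians follow from the choice.

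**Figure D4:**
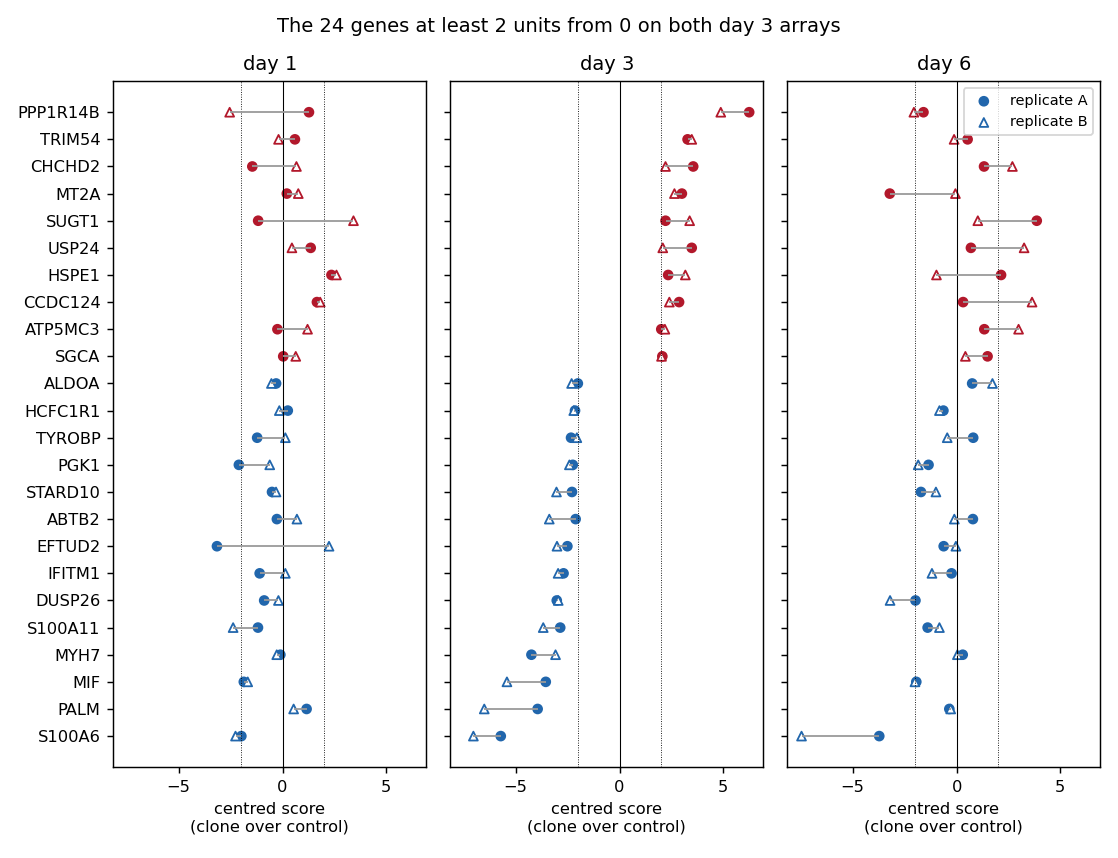
Centred scores (units as deposited, clone over control) of the 24 counted genes on both arrays of days 1, 3 and 6, joined by a line for each day, with dotted lines at 2 units. PPP1R14B stands at 6.24 and 4.87 on day 3 and has means of -0.64 and -1.82 on days 1 and 6, while S100A6 is below 0 on all 6 arrays.

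Several large means rested on 1 array. Of 64 genes with a day 3 mean at least 2 units from 0, 40 did not reach 2 units on both arrays, 18 higher and 22 lower. The sign was the same on both arrays for 39 of the 40, and for 53.8% of all 1521 genes. The 40 were chosen by the mean of both arrays, which favours equal signs, so their share is no measure of agreement. YPEL3, named here after its values were seen, averaged 5.01 from 0.90 on replicate A and 9.11 on replicate B, and its spots read 0.24, 1.56, 14.95 and 3.35 (limma's adjusted p = 0.157). Others, also picked for their values, were SHISAL2A at -5.58 and -0.73, ARHGAP33 at -1.17 and -5.69, KLHDC3 at -1.58 and -5.39, NECTIN2 at -4.89 and -0.57, and YBX1 at 4.48 and 1.12. NCOA4, at 4.58 and -0.27, had opposite signs. Of the 7 unnamed probes counted, the 1 that fell, in spots 4383 and 4384, read -2.87 and -5.27 (mean -4.07, limma's adjusted p = 0.0145). It missed the threshold without day 3 replicate B (limma's adjusted p = 0.316) or either day 1 array (0.104). Of the other unnamed probes, 1 was higher at a mean of 2.28, and 5 had means of -3.27 to -2.06.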

How the data were processed

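Per the labels' protocols, Trizol-purified total RNA was reverse transcribed, and a tyramide amplification kit was used for labelling. The authors deposited 1 score per spot and array; filtering, normalisation and scale are not given in the sources used here. Each odd spot was averaged with the next even one, probes of a gene symbol were averaged, symbols came from a platform annotation table, and each array was centred on its median (-0.071 to 0.035 over the features). The count took features that both day 3 arrays put at least 2 units from 0 on the same side. limma 3.58.1 in R 4.3.3 was fitted to all 6 arrays with days as coefficients (two-sided, Benjamini-Hochberg over all features, threshold 0.05), and was tested on simulated data. Genes named are those counted, MYOD1, the title genes, and up to 3 of the highest and lowest of each of 25 lists. Others are said to be picked by value or named for their family. The members and lists were chosen with earlier results of these data known. No set test was run. Alternatives were other thresholds, values as deposited, scaled arrays, separate or median probes, neighbouring probes subtracted (10 per probe), genes only, a dye term, a robust prior (statmod 1.5.0) and leaving out each array. Promoter windows were from RefSeq. Python 3.11.15 with matplotlib 3.10.9 drew the figures.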

Additional observations from a re-analysis of the deposited data

Results flagged for a closer look

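A total of 5 differences between days passed limma's test against the spread between dye-swapped arrays. CDKN1C was higher on day 3 than on day 1 by 8.36, and PPP1R14B by 6.19. The difference of PALM was -6.08. An unnamed probe in spots 4045 and 4046 differed by -10.34 (limma's adjusted p = 0.00667), reading 8.47 and 7.07 on day 1, 0.72 and -5.86 on day 3 and -4.45 and -4.39 on day 6, and it missed the threshold without either day 1 array (limma's adjusted p of 0.410 and 0.328) and with a robust prior (0.277). Against day 6, PPP1R14B was higher by 7.38. With a dye term in the limma fit, both differences of PPP1R14B and that of PALM missed the threshold (adjusted p of 0.0688 to 0.0727). Each day is 1 pair of arrays, so these tests hold for the arrays only.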

How the results depend on the processing

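The count of 31 features on both arrays became 204 at a threshold of 1 unit, 79 at 1.5 units and 7 at 3 units, and with either array alone 211 to 216 reached 2 units. The 24 genes counted were 24 of 24 in values as deposited, 22 in scaled arrays, 23 with separate probes or their median, and 15 with neighbouring probes subtracted. With separate probes, a gene was kept if at least 1 of its probes reached 2 units on both arrays. MYH7, DUSP26 and STARD10 were kept although each also had a probe that did not. STARD10 turned to 0.41 when its probe nearest 0 stood for the gene. The 8 day 3 calls in limma became 15 with separate probes, 19 with neighbouring probes subtracted, 16 with a robust prior and 4 to 11 with 1 array left out. The 4 calls between days 3 and 1 became 0 to 4 with 1 array left out. The 1 call between days 3 and 6 became 4 with separate probes, 2 with neighbouring probes subtracted, 12 with a robust prior and 1 to 7 with 1 array left out. The cause was not tested.

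The letters A and B mark the dye orientation, and the differences between A and B correlated across days at -0.00184, -0.03774 and -0.01199. These values are near 0 but are taken over all features. They do not show whether single genes carry a dye effect, and they cannot show whether samples are paired. A dye term also leaves the limma fit 2 residual degrees of freedom in place of 3. Why calls were lost with it was not tested. With the replicate block (a dye term) limma called 4 features on day 3, 2 between days 3 and 1 and 0 between days 3 and 6, with 216, 169 and 193 at an unadjusted p under 0.05. Of the group medians, those of thin filament, Z disc, excitation, muscle regulator, glycolysis, complex II and III, ribosomal, proteasome, metal binding and pooled sarcomere genes changed sign under at least 1 alternative. The day rests on 1 clone and 1 pair of arrays, mouse RNA was read on human probes, and spot brightness was not used here, so dim spots are not told from bright ones.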
